A study of Bos taurus with 3 samples.

Results

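The miRNA genes described here are 5 genes of the MIR30 family and 5 other miRNA genes, LET7I, MIR125B2, MIR16A, MIR451 and MIR500. They were chosen by name from the authors' tables of Argonaute sites in bovine retina, and each of the 10 had 1 listed site. They make up 10 of the 22 miRNA genes, 10 of the 280 named genes and 10 of the 402 sites in those tables. The series used Argonaute HITS-CLIP, in which ultraviolet light fixes RNA to the Argonaute protein, the protein is purified and the RNA bound to it is sequenced. Dissected retinas of mixed cattle strain were broken up into clusters of cells and given 3 exposures of 400 mJ/cm2. All samples belong to 1 group of 3 replicates with no treatment, no genotype and no control sample, and no age is stated. Whether each replicate is a different animal is not stated either, so the SDs below (n = 3) may be technical.

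The listed sites held 6421 tags in replicate 1, 5779 in replicate 2 and 4114 in replicate 3, which are sums over listed sites and not library depths. Every listed site had a peak in all 3 replicates. Of 11 photoreceptor marker genes 9 carried a site, among them the rod arrestin SAG and the rod transcription factor NRL. None of 13 red blood cell, 4 Müller glia, 4 endothelial and 4 pigment epithelium markers did. A gene missing from the tables may still have been bound below the authors' threshold.

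A miRNA is cut from a hairpin transcript. The short RNA from either arm of the hairpin, the 5′ or the 3′ arm, can be loaded into Argonaute, which it then guides to target mRNAs through its seed, the bases near its 5′ end. The miR-30 miRNAs share a seed and differ in few other bases. The let-7 family, to which let-7i belongs, is best known for holding back proliferation and for its control by LIN28 in early development. miR-125b is the vertebrate relative of nematode lin-4 and is abundant in neurons. miR-16 is known for restraining cell cycle and survival genes. miR-451 is the abundant miRNA of red blood cells, and its hairpin is cut by Argonaute 2 instead of Dicer. miR-500 comes from a cluster of miRNA genes on the X chromosome.

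The MIR30 genes had 6 to 12 tags in each replicate. MIR30E had 11, 11 and 12 tags in replicates 1, 2 and 3 on chromosome 3 (111490859 to 111490924, in the authors' coordinates, build not stated). MIR30A had 11 tags in every replicate on chromosome 9 (10359445 to 10359509). MIR30D, the only member on the plus strand, had 9, 9 and 10 tags on chromosome 14 (6481884 to 6481946). These 3 genes had the smallest SDs of the family before scaling, at most 0.577 tags. Scaled by the median ratio over all sites the order turned, with SDs of 3.48 in MIR30E, 2.98 in MIR30D and 2.74 in MIR30A, against 1.60 in MIR30F and 0.884 in MIR30C. MIR30C had 11, 8 and 7 tags on chromosome 3 (111487730 to 111487792), so that its replicate 1 equalled MIR30E and its replicate 3 lay below MIR30D. MIR30F had the lowest mean of all members, with 6, 8 and 6 tags on chromosome 9 (10322098 to 10322158).

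The other members spanned the same range. MIR500 had 13, 10 and 11 tags on the X chromosome (54853929 to 54853977), and its 13 tags were the highest value of any member. MIR451 had 8, 10 and 9 tags on chromosome 19 (20040816 to 20040844). LET7I varied most, with 11, 6 and 10 tags on chromosome 5 (54870254 to 54870335), a coefficient of variation of 29.4%, or 39.5% with scaled tags. MIR16A had 9, 10 and 6 tags on chromosome 12 (18813057 to 18813119). MIR125B2 had 7, 9 and 8 tags on chromosome 1 (20054265 to 20054355). The authors class all 10 sites as non-coding RNA.

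**Figure D1:**
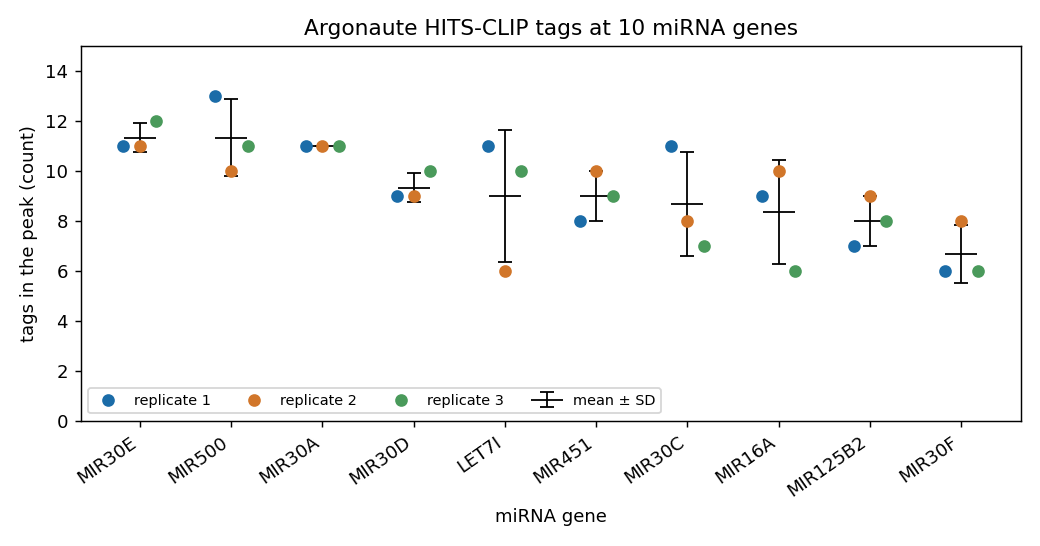
Tags in the peak of each replicate (points) for the 10 miRNA genes, ordered by mean; the black bar and whiskers are the mean ± SD over the 3 replicates. The means lie between 6.67 in MIR30F and 11.3 in MIR30E and MIR500, and most neighbours in the order overlap.

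The order of the means was MIR30E and MIR500 (11.3), MIR30A (11), MIR30D (9.33), LET7I and MIR451 (9), MIR30C (8.67), MIR16A (8.33), MIR125B2 (8) and MIR30F (6.67). Of the 9 steps between neighbours in this order, 8 joined genes whose replicate values overlapped. The exception was MIR30A over MIR30D, and it too overlapped once the replicates were scaled by the median ratio over all sites. Of the 45 pairs of members, 13 did not overlap before scaling and 4 after it. Comparing genes within each replicate, which needs no scaling, 19 pairs had the same order in all 3. The counts expected of genes with equal levels were not worked out, so these counts of pairs alone do not rank the genes. MIR30A and MIR30E each lay above MIR30D, MIR451, MIR16A, MIR125B2 and MIR30F in every replicate. MIR30F lay below MIR30D, MIR451 and MIR125B2 in every replicate as well.

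By the mean of the replicates the members stood in the middle and lower part of the table. MIR30E and MIR500 shared rank 161 of 402 sites and MIR30F had rank 341. Among the 22 miRNA genes, MIR30E and MIR500 shared rank 3, and MIR30F had rank 18. The median of the 10 members was 9.67 ± 0.289 tags (median in each replicate, mean ± SD, n = 3). It was 7.83 ± 0.289 in the other 12 miRNA genes and 9.67 ± 2.52 over all sites. By replicate the medians of the members were 10, 9.5 and 9.5 tags, against 12, 10 and 7 over all sites. The members thus lay below all sites in replicates 1 and 2 and above them in replicate 3. On the log2 scale the median of the members lay above that of the other miRNA genes by 0.31 in replicate 1, 0.25 in replicate 2 and 0.34 in replicate 3, or 0.30 ± 0.05. Per nt of peak length the same difference was 0.01 ± 0.11. The median of the MIR30 genes minus that of the other members was 0.29, -0.15 and 0.15 in the 3 replicates, a mean of 0.10 ± 0.23 that did not exceed the spread between replicates. With the summit count, defined below, in place of tags it was 0.38 ± 0.20, more than its SD over replicates. The medians behind it were whole counts, 9, 8 and 9 in the MIR30 genes and 7, 7 and 6 in the other members. That SD does not measure the spread between genes. The summit count was not compared without MIR30E, whose peaks were nearly the same as those of MIR30A.

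The MIR30 genes held 48 of 211 tags in miRNA gene sites in replicate 1 (22.7%, 95% Wilson interval 17.6 to 28.9). They held 47 of 192 in replicate 2 (24.5%, interval 18.9 to 31.02) and 46 of 182 in replicate 3 (25.3%, interval 19.5 to 32.1). These intervals cover counting error only. The MIR30 genes are 5 of the 22 miRNA gene sites, and that share of sites lies within the interval of every replicate. The sums of MIR30 tags differed by at most 2 between replicates, while the sum over all listed sites was 6421 in replicate 1 and 4114 in replicate 3. All 10 members together held 96, 92 and 90 tags, or 1.495% of the listed tags in replicate 1 (interval 1.23 to 1.82), 1.59% in replicate 2 (interval 1.30 to 1.95) and 2.19% in replicate 3 (interval 1.78 to 2.68). The members are 10 of the 402 listed sites. Scaled by the median ratio over all sites, their sums were 80.3, 88.2 and 118, highest in replicate 3. Those of the MIR30 genes were 40.1, 45.05 and 60.5. The other 12 miRNA genes held 115, 100 and 92 tags before scaling. Peak length set a ceiling on the tags, described further on, and its part in the even unscaled sums was not tested.

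No member was called as varying over the replicates beyond counting noise. An exact multinomial test of the 3 tag counts against the scaled depth of the replicates, with Benjamini-Hochberg adjustment over all 402 sites, called 0 of the 10, and 0 had an unadjusted p under 0.05. Over all sites 20 were called (4.98%), and 59 had an unadjusted p under 0.05 (14.7%). The smallest adjusted p of a member in this exact test was 0.750, in LET7I. The members had 6 to 13 tags in a peak, so their counting error was wide and a missed call does not show that the replicates were equal. In 11 of the 30 member peaks the tags were also at the ceiling set by peak length or 1 below it. The test makes no allowance for that ceiling. The coefficient of variation had a median of 12.99% in the members, 6.19% in the MIR30 genes, 10.9% in the other miRNA genes and 35.8% in sites outside miRNA genes. With scaled tags, an alternative chosen after seeing the data, it was 25.8%, 23.99%, 17.3% and 27.7% in that order. The low values of the members and the MIR30 genes thus depend on leaving the tags unscaled. That of the other miRNA genes rose as well but stayed below the value outside miRNA genes.

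Peak lengths fell into separate classes. Of the 30 member peaks, 11 were 25 to 31 nt long and 19 were 49 to 91 nt long, with none between. The limit of 31 nt was set after the lengths were seen. In the other miRNA genes 13 of 36 peaks were 31 nt or shorter, and outside miRNA genes 101 of 1140 were (8.86%). MIR451 peaks were short in every replicate, at 27, 29 and 29 nt. MIR30D peaks were long in every replicate, at 62, 61 and 62 nt, as were those of MIR30C at 63, 58 and 58 nt and MIR16A at 63, 63 and 62 nt. MIR125B2 had peaks of 91, 61 and 61 nt. The remaining 5 members had both kinds. MIR30A had peaks of 30, 31 and 65 nt and MIR30E of 30, 31 and 66 nt, long in replicate 3 only. MIR30F had 25, 61 and 61 nt, LET7I 81, 25 and 81 nt, and MIR500 49, 29 and 30 nt.

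**Figure D2:**
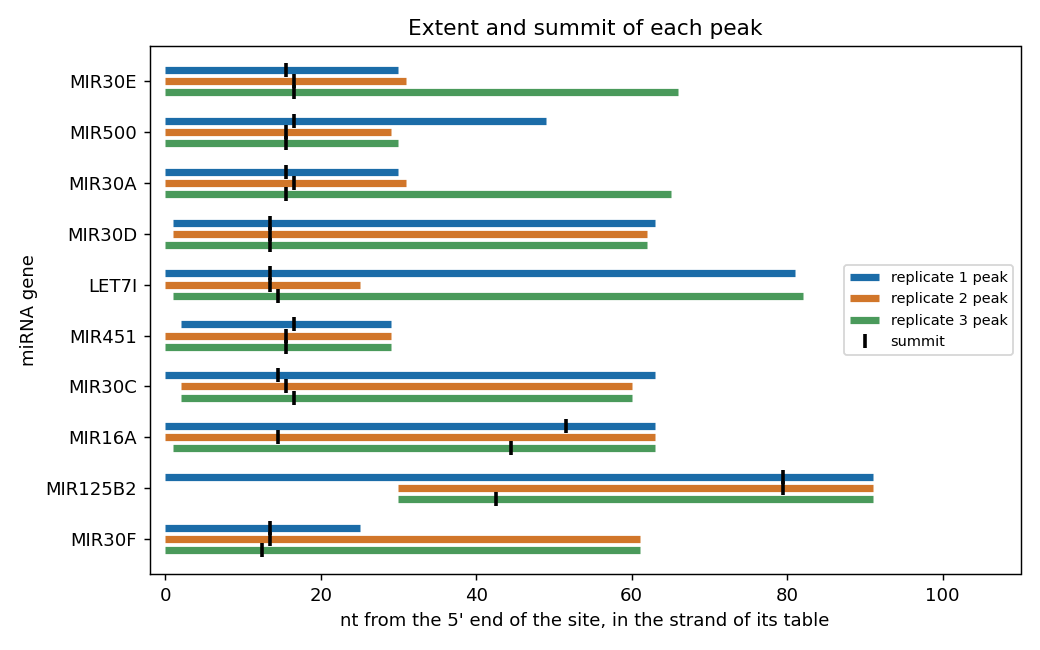
Extent of the peak in each replicate (coloured bars) with its summit (black tick), in nt from the 5′ end of the site, read in the strand of the authors' table. MIR451 has only short peaks, MIR30A and MIR30E have a long peak in replicate 3 only, and the summits of MIR16A and MIR125B2 change place between replicates.

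In most long member peaks, the summit, the point of highest coverage, lay near an end and not in the middle. It lay further in for MIR16A in replicate 3, at 43 and 18 nt from the 5′ and 3′ ends. For MIR500 in replicate 1 these distances were 16 and 32 nt. For MIR30D it was 12, 12 and 13 nt from the 5′ end of the peak, read in the strand of the authors' table. MIR30C had its summit 13 to 14 nt from the 5′ end, and MIR30F 12 to 13 nt. MIR30A and MIR30E had theirs at 15 to 16 nt, in the short and the long peaks alike. In all 10 long peaks of the MIR30 genes the summit was nearer the 5′ end than the 3′ end. The same held for 5 of 9 long peaks of the other members and 19 of 23 in the other miRNA genes. Outside miRNA genes it held for 384 of 1039 peaks over 31 nt. LET7I had its summit 13 nt from the 5′ end in every replicate, and MIR500 at 15 to 16 nt. The strand is that of the table that holds the site.

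MIR16A and MIR125B2 were different, since the position of the summit changed with the replicate. In MIR16A it lay 51, 14 and 43 nt from the 5′ end in replicates 1, 2 and 3, so it was nearer the 3′ end in replicates 1 and 3. In MIR125B2 it lay 11, 11 and 48 nt from the 3′ end, which placed it near the 3′ end in replicates 1 and 2 and nearer the 5′ end in replicate 3. The summits of these genes were spread over 37 nt in each case. They rested on few tags, with a summit count, defined below, of 5 of 9, 7 of 10 and 3 of 6 tags in MIR16A. In MIR125B2 it was 4 of 7, 5 of 9 and 5 of 8. A few tags could thus have moved the summit, and whether the bound position itself changed was not tested. In the other 8 members the spread was 0 to 2 nt, against a median of 10 nt in sites outside miRNA genes. In the other 12 miRNA genes the spread was at most 3 nt. MIR16A and MIR125B2 have near relatives in the genome, MIR16B and MIR125B1, which were not among the listed genes. MIR30A and MIR30E are near relatives of each other, and their summits were spread over 1 nt. Whether relatives bear on the place of the summit was not tested.

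The deposited fold enrichment allowed a closer look at how the tags were placed. In each strand table and replicate, every fold enrichment was a whole multiple of a fixed step, within 0.01 of a step, in all 1206 peaks. The number of steps never exceeded the tags of the peak, and equalled them in all 125 peaks of 31 nt or less. It is called the summit count here and read as the number of tags over the summit, though the headers do not say so. MIR451 had a summit count of 8, 10 and 9, equal to its tags. MIR30A had 11, 11 and 10, so its long peak in replicate 3 rested on 1 tag away from the summit. MIR30E had 11 in every replicate and likewise 1 remaining tag, in replicate 3. MIR500 had 12, 10 and 11, with 1 remaining tag in replicate 1.

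Over the 3 replicates together, the other MIR30 genes had more tags away from the summit. MIR30D had summit counts of 7, 8 and 9, MIR30C of 9, 6 and 6, and MIR30F of 6, 6 and 4. As a share of the tags this was 85.6% ± 6.76, 80.8% ± 5.42 and 80.6% ± 17.3 in that order (n = 3), against 97.0% ± 5.25 in MIR30A and 97.2% ± 4.81 in MIR30E. MIR30A and MIR30E had short peaks in replicates 1 and 2, and in short peaks the summit count always equalled the tags. In replicate 3 all MIR30 peaks were long. There 1 tag lay away from the summit in MIR30A, MIR30E, MIR30D and MIR30C, and 2 in MIR30F. The shares there were 90.9%, 91.7%, 90%, 85.7% and 66.7% in that order. LET7I had counts of 7, 6 and 6, and its share was 63.6% in replicate 1 and 100% in replicate 2. MIR16A with 5, 7 and 3 and MIR125B2 with 4, 5 and 5 had the lowest shares, 58.5% ± 10.3 and 58.4% ± 3.64. These are the genes whose summit changed place. The median share over the members was 89.8% ± 4.05, against 85.5% ± 6.55 in the other miRNA genes and 62.2% ± 3.85 in sites outside miRNA genes, where peaks were longer.

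**Figure D3:**
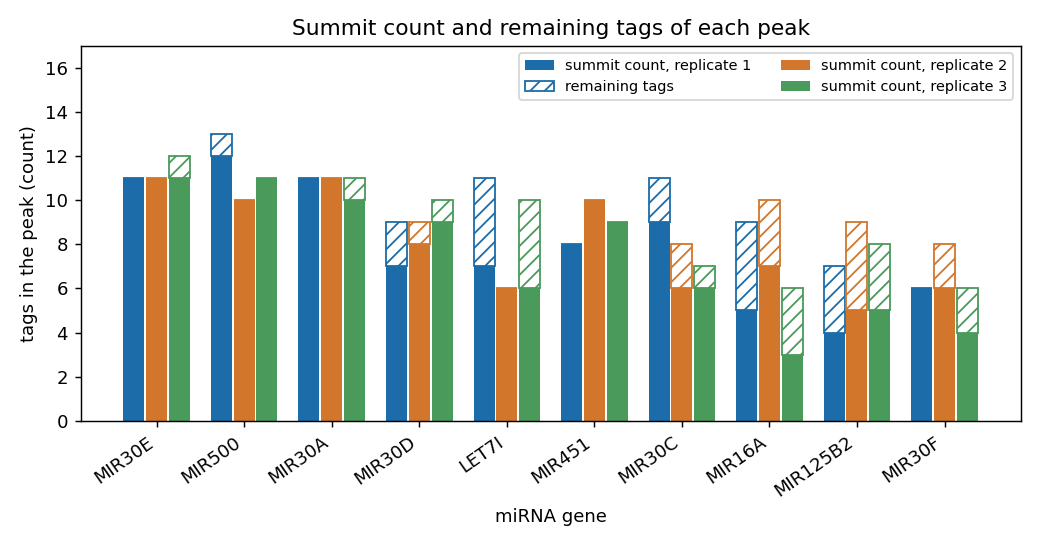
Tags of each peak split into the summit count (filled) and the remaining tags (hatched), for replicates 1 to 3 of each gene. MIR451 has no remaining tags, MIR30A, MIR30E and MIR500 have 1 each, and MIR16A and MIR125B2 have 10 each over the 3 replicates.

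The ceiling on the tags followed peak length. In all 1206 peaks the tags numbered at most the length minus 19, and 45 peaks reached that ceiling. Of these, 8 were member peaks, out of 30: all 8 were short, and each of the 11 short member peaks was at the ceiling or 1 tag below it. They were MIR30A and MIR30E in replicate 1, MIR30F in replicate 1, LET7I in replicate 2, MIR451 in replicates 1 and 2, and MIR500 in replicates 2 and 3. The mean share of the ceiling was 96.7% ± 5.77 in MIR451 and 81.1% ± 32.7 in MIR500. It was 21.9% ± 1.22 in MIR30D, 21.2% ± 3.57 in MIR30C, 19.05% ± 4.55 in MIR16A and 16.7% ± 6.19 in MIR125B2. Since no listed peak passed the ceiling, tags in short peaks do not rank MIR451, MIR500, MIR30A and MIR30E by how much of each miRNA was bound. The long peaks of MIR30A and MIR30E in replicate 3 had summit counts of 10 of 11 and 11 of 12 tags. Their shares of the ceiling were 23.9% and 25.5%. A low share in a long peak therefore does not by itself show room for more tags at the summit. The order of means and pairs given above carries the same limit. In replicate 2 the LET7I peak of 25 nt held 6 tags, its ceiling, while its longer peaks in the other replicates held 11 and 10. The members averaged 49.0% ± 12.9 of the ceiling, the other miRNA genes 48.3% ± 4.33 and sites outside miRNA genes 26.5% ± 1.61.

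**Figure D4:**
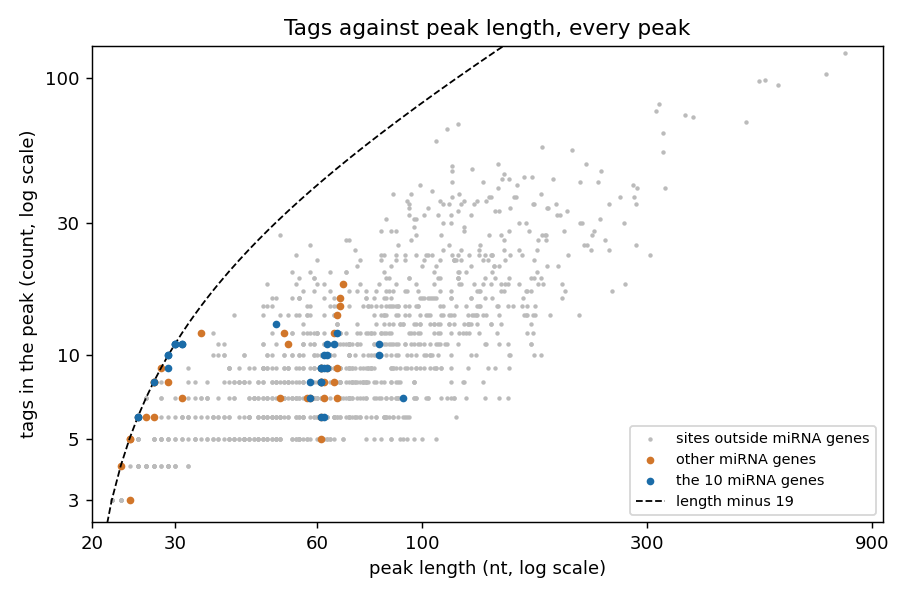
Tags against length for all 1206 peaks, both axes on a log scale, with the dashed line at length minus 19. The short member peaks (blue, 25 to 31 nt) lie on the line or 1 tag below it, and the long ones (49 to 91 nt) lie well below it among the other sites.

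MIR30A and MIR30E gave nearly the same peaks. Tags and lengths were equal in replicates 1 and 2, 11 tags in 30 nt and 11 tags in 31 nt, and in replicate 3 they were 11 in 65 nt and 12 in 66 nt. The summit lay 15 and 16 nt from the 5′ end in replicates 1 and 2 of both. Of the 80601 pairs of listed sites, 2 had equal tags and equal lengths in both of these replicates, and MIR30A with MIR30E was 1 of them. Their mature miRNAs are nearly identical in sequence, and whether a tag could be counted at both genes is not stated. Without MIR30E the MIR30 share of the tags in miRNA gene sites was 19.5% ± 0.836 in place of 24.2% ± 1.29.

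Several members lay near each other. The summits of MIR30C and MIR30E were 3131 nt apart on chromosome 3, and RefSeq (ARS-UCD2.0, used here for names and neighbours only) places both inside NFYC, a transcription factor gene with no listed site. MIR30A and MIR30F were 37349 nt apart on chromosome 9. MIR30A, with 33 tags over the 3 replicates, and MIR30F, with 20, were apart in every replicate, though the ceiling of the short MIR30F peak in replicate 1 was 6. MIR30D has MIR30B as its neighbour in RefSeq, and MIR30B was not listed. MIR500 lay 1266 nt from MIR362, which had 8 tags in every replicate, and RefSeq places MIR500 inside CLCN5, a chloride transporter gene with no listed site. Of the 7 miRNA genes that RefSeq has within 50 kb of MIR500, MIR362 was the listed one. MIR125B2 lay 49163 nt from MIRLET7C, with 7, 5 and 4 tags, and 49884 nt from MIR99A, with 8, 8 and 7 tags, and RefSeq has no further miRNA gene within 50 kb. The RefSeq neighbours MIR144 of MIR451 and MIR15A of MIR16A were not listed.

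Of 28 miRNA genes that are relatives or cluster partners and have a RefSeq entry, 3 had a site: MIRLET7C, MIR99A and MIR362. Of 22 genes of miRNA production and silencing, 3 had sites. EIF2C2, the older name of Argonaute 2, had a 3′ UTR site of 15, 10 and 4 tags. ZCCHC11, a uridyltransferase that tails let-7 precursors, had a 3′ UTR site of 20, 12 and 7 tags. TNRC6B, the Argonaute partner in silencing, had 5 sites with means between 7.67 and 14.3 tags. None of these 7 sites was called by the exact multinomial test (smallest adjusted p = 0.562). The tables do not say which miRNA bound any of these sites.

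The sites outside miRNA genes most like the MIR30 sites were found from log2 tags and log2 peak length in the 3 replicates, as a Euclidean distance over 6 numbers to the median MIR30 site. They were a 3′ UTR site of AGPAT3, an acyltransferase of phospholipid synthesis (distance 0.61), a 3′ UTR site of L1CAM, a neural adhesion molecule (0.68), and a coding site of CLTC, the clathrin heavy chain (0.84). The MIR30 sites themselves lay 0.96 to 1.20 from their median, and sites outside miRNA genes had a median distance of 2.23. AGPAT3 had 8, 10 and 10 tags in 32, 65 and 77 nt. Heights and lengths like those of a MIR30 site were thus also found in mRNAs.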

How the data were processed

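Argonaute HITS-CLIP was measured in 3 replicates of bovine retina, and the deposited tables list peaks by strand. CASAVA 1.8.1 and GSNAP appear in the submitters' processing notes, with no role stated; peak caller, build and site rule are not stated. Per the file headers, tags are a count per peak and replicate. The deposited fold enrichment is a ratio over a background the headers do not describe. Per the file headers, each peak has a score made from the log10 of its p-value, higher for smaller p.

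Tags were used unscaled unless stated. Depths are sums over listed sites. Replicates were scaled by the median ratio over sites for the exact multinomial test, with Benjamini-Hochberg adjustment over 402 sites (threshold 0.05). It was tried on simulated counts that had no ceiling from peak length. Other values are medians or means with the SD over 3 replicates and have no test. Gene names matched RefSeq ARS-UCD2.0 by symbol or spelling variant for all 10 members. The members and lists were chosen with earlier results of these data known. Every member is named, with listed relatives, pathway genes and neighbours, and the 3 sites most like MIR30. Alternatives were other scalings and filters, the summit count, a pseudocount of 1, tags per nt, each replicate left out and MIR30E left out. The tools were pandas 2.3.3, numpy 2.4.6 and matplotlib 3.10.9 under Python 3.11.15. A photoreceptor marker of the list is not reported here.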

Additional observations from a re-analysis of the deposited data

How the results depend on the processing

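No paired analysis was possible because the series has 1 group and no contrast between groups. The count of members varying beyond counting noise was 0 in every alternative run, by the exact multinomial test, with adjusted p of at least 0.298. Of 58 alternative values in all, 39 moved by no more than the spread between replicates or kept the count. Leaving out a replicate in turn gave a MIR30 share of the miRNA gene tags of 23.6% to 24.9%, a member median of 9.50 to 9.75 tags and a difference from the other miRNA genes of 0.28 to 0.33 (log2). With only sites whose weakest p-value score reached the median over all sites (7 members and 7 other miRNA genes left), these values were 29.0%, 10.3 tags and 0.16. With only sites whose peaks share at least 50% of the longest peak (6 members left, 2 of them MIR30), they were 13.4%, 9 tags and 0.23. With the summit count in place of tags they were 25.7%, 7.50 and 0.20. The difference of MIR30 from the other members was then 0.38 ± 0.20, beyond its SD over replicates, in place of 0.10 ± 0.23. Scaling by the median ratio moved the member median to 9.99. Tags per nt of peak took the difference from the other miRNA genes to 0.014. Without MIR30E, an alternative chosen after seeing the data, the first 3 values were 19.5%, 9 tags and 0.20. The MIR30 share is summed over sites and so depends on how many MIR30 sites are left. The p-value score filter left 4 MIR30 sites among 7 members, beside 7 other miRNA genes. The shared-length filter left 2 among 6, beside 9, and leaving out MIR30E left 4 among 9, beside 12. The cause of these shifts was otherwise not tested. The filters leave fewer sites, while the summit count, the scaling and tags per nt keep them all. With 3 to 13 tags over each summit or peak, counting error limits every value.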
